A study of Mus musculus with 74 samples.

Results

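The binding of KRAB zinc finger proteins (KRAB-ZFPs) at 43 mouse genes of the germline was examined. The genes were listed by name for their known roles in the piRNA pathway, in meiosis or in gametes, and a peak was assigned to a gene when the centre of its 200 bp window lay in the gene body or within 50 kb of it in build mm9 (gencode vM1 genes). They made up 43 of 37273 annotated genes on assembled chromosomes, and 165 of 53011 peaks were assigned to them. KRAB-ZFPs are DNA-binding proteins whose KRAB domain recruits the corepressor KAP1. In the study each was expressed with an epitope tag from a stably integrated vector in pooled drug-resistant clones, and its binding sites were mapped by ChIP-seq, in which formaldehyde-fixed chromatin carrying the tagged protein is immunoprecipitated and sequenced. Of the 67 KRAB-ZFPs used here, 58 were expressed in F9 cells, a mouse embryonal carcinoma line, and 9 in B6 mouse embryonic stem (ES) cells. In F9 cells, where an input and a control ChIP with the tag's antibody served as background, 18 carried a FLAG tag and 40 an HA tag, of which 10 were aligned with Bowtie2 and had another control ChIP, and the 9 in ES cells carried an HA tag and had an input alone as control. All samples therefore carried an overexpressed protein in pluripotent-type cells and none was a germ cell sample. A single sample stood for each KRAB-ZFP, so the values carry no error between replicates and differences between proteins were not replicated. The study discarded some of its datasets, for which neither a motif nor a target transposable element was found and signal to noise was low. Those datasets were not set apart here. The depth of the libraries is unknown here, so the lack of a peak does not show the lack of binding. Where a fold is given, it is the enrichment of a peak over local background in the authors' values.

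Germ cells divide by meiosis, in which homologous chromosomes are cut, paired along a protein axis and exchanged. During this period transposable elements can be transcribed, and a germline pathway of Piwi proteins loaded with small piRNAs silences them. Many of these genes are themselves kept silent outside the germline, often by methylation of CpG-rich promoters. KRAB-ZFPs act on transposable elements by another route, through binding to DNA.

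A peak lay in the gene body or within 50 kb for 41 of the 43 genes (95.3%), and the same was true of 91.8% of 18257 protein-coding genes between 1439 and 150759 bp long, the length range of the germline genes. The protein-coding germline genes were not removed from this comparison set. The median was 3 peaks per gene in both sets, and the mean was 3.84 peaks for the germline genes and 3.82 for the comparison set. A gene body peak was found for 20 genes (46.5%) beside 39.7% of the comparison set. Having KRAB-ZFP peaks nearby was therefore close to what genes of these lengths had in general. The windows of the germline genes covered 5.93 Mb with 27.8 peaks per Mb, against 26.3 peaks per Mb in the windows of protein-coding genes in that range and 20 over the assembled chromosomes. Tdrd7 and Asz1 had no peak within 50 kb. The nearest peak to Tdrd7 was one of Gm13225 at 80.5 kb downstream of the gene, and the nearest to Asz1 was one of Gm14412 at 59.6 kb upstream.

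**Figure D1:**
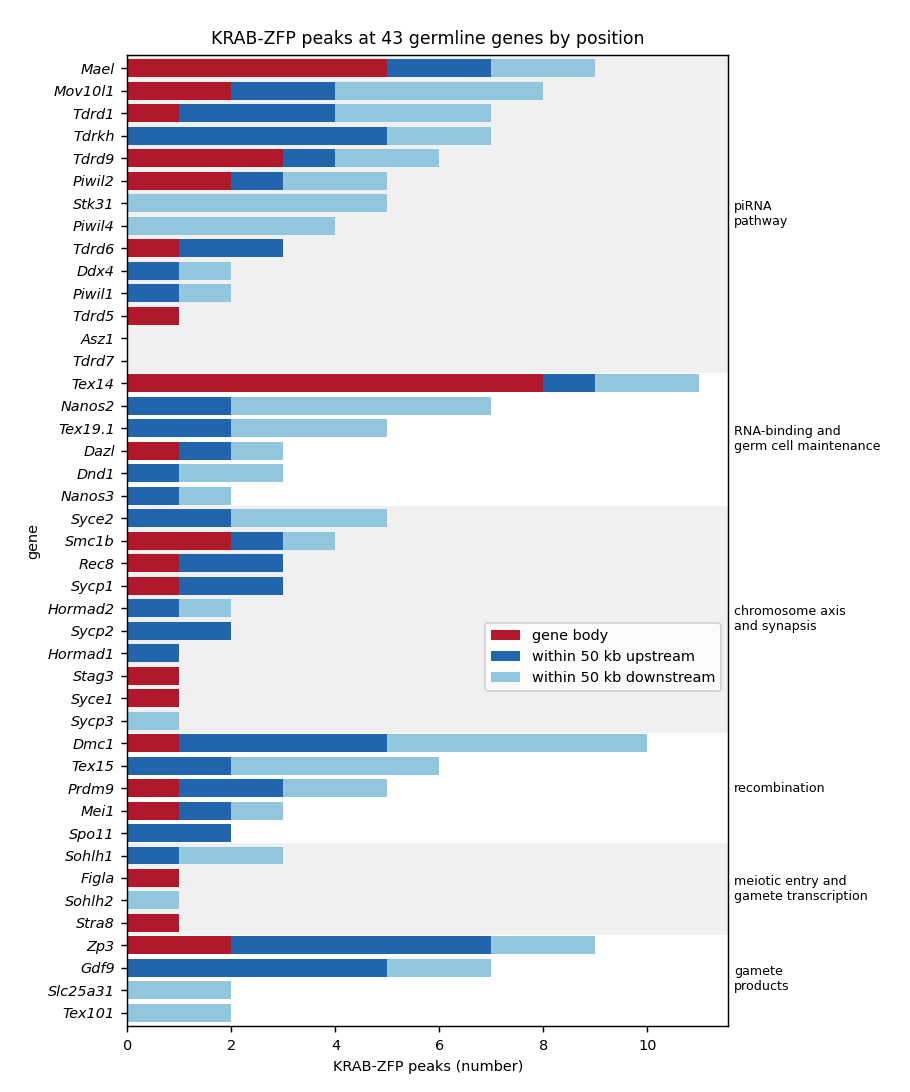
Number of KRAB-ZFP peaks (horizontal axis) for each of the 43 genes, grouped by role, with red for peaks in the gene body, dark blue for peaks within 50 kb upstream and light blue for peaks within 50 kb downstream. Tex14 had the most peaks (11), Asz1 and Tdrd7 had 0, and 8 genes had 1.

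The genes differed widely among themselves. Tex14 had 11 peaks, Dmc1 had 10, and Mael and Zp3 had 9 each, while 8 genes had 1 peak. In the plot of shares of genes by number of peaks, the germline genes spread within the range of the comparison set. Of the germline genes 11.6% had 8 or more peaks, beside 10.5% of the comparison set. The 20 germline genes shorter than 20 kb all had a peak, as had 89.9% of genes of that length in the comparison set. Of the 14 germline genes over 50 kb, 12 had one (85.7%), beside 95.4% of genes of that length in the comparison set.

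**Figure D2:**
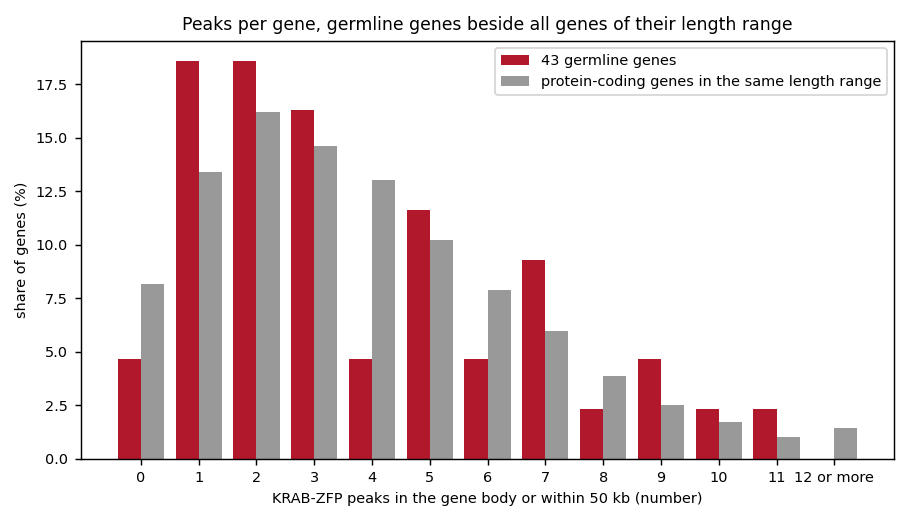
Share of genes in percent (vertical axis) with each number of peaks in the gene body or within 50 kb (horizontal axis), in red for the 43 germline genes and in grey for 18257 protein-coding genes in the same length range. The share with no peak was 4.65% of the germline genes and 8.18% of the protein-coding genes in range, and no germline gene had 12 or more.

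Most peaks lay away from the start of the gene. Of the 165 peaks, 37 lay in a gene body, 59 upstream and 69 downstream, and the median distance from the nearest annotated transcript start of the gene was 34 kb. Of the gene body peaks, 34 were in introns, 2 in coding exons and 1 in an untranslated region. A germline gene had the nearest coding transcript start for 57 of the 165 peaks. The other peaks were nearer to a neighbouring gene, and of the 31 peaks within 1 kb of any coding transcript start 7 were at a germline gene. These 31 were 18.8% of the peaks, beside 14.9% of peaks near protein-coding genes in the length range and 9% of all peaks. Windows of 50 kb reach neighbours of any gene, and the distances were not set beside those of other genes. For a peak nearer to a neighbour, these data do not tell which gene, if any, it acts on.

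**Figure D3:**
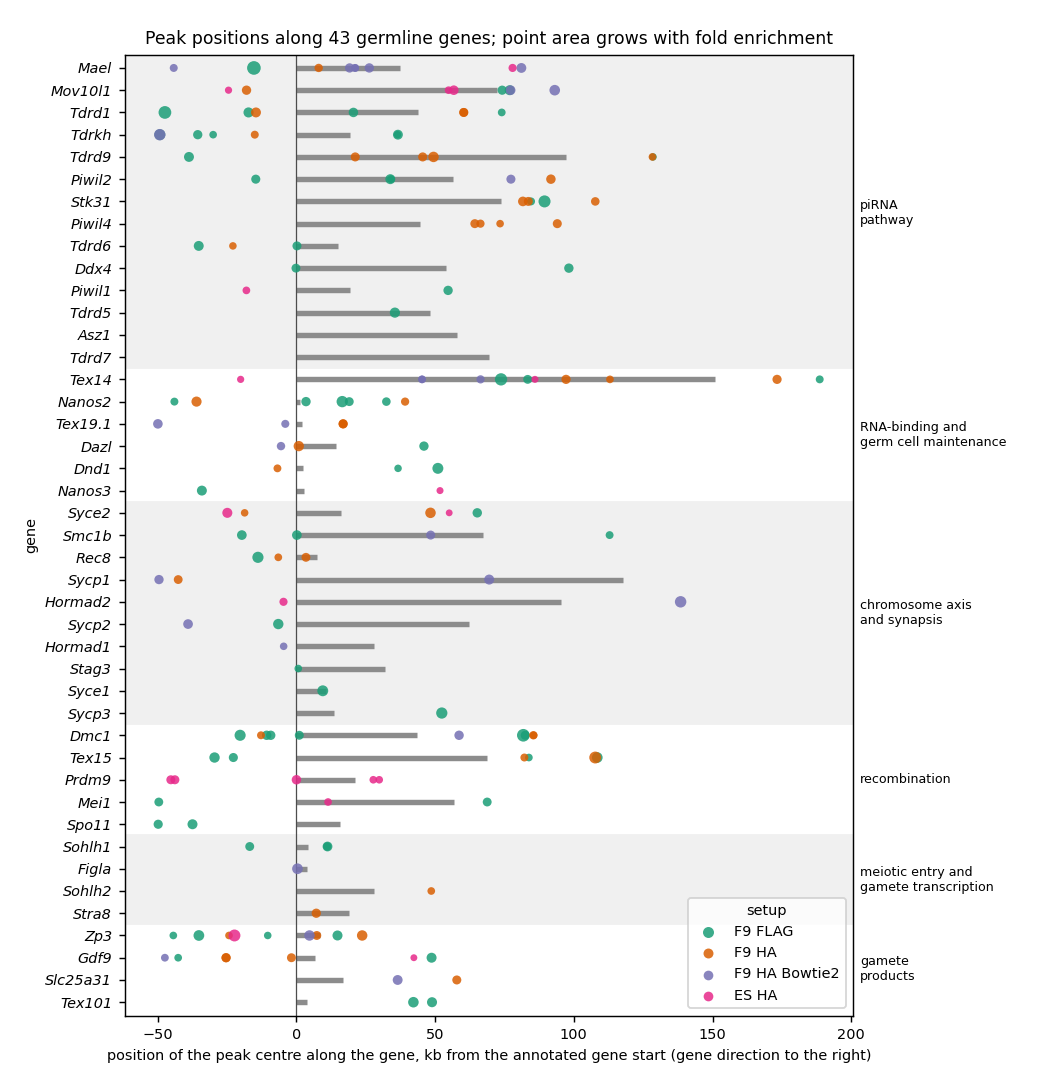
Position of each peak centre in kb from the annotated start of the gene (horizontal axis, gene direction to the right) for the 43 genes, with grey bars for the gene bodies. Colours stand for the combination of cell line, tag and alignment, and larger points for higher fold enrichment. Peaks are spread over the windows, and few points lie on the line that marks the gene start.

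A peak within 1 kb of an annotated start was found for 7 genes (16.3%), namely Ddx4, Dazl, Figla, Prdm9, Smc1b, Stag3 and Tdrd6, beside 21.7% of protein-coding genes in the length range. Gm13152, of which many peaks lie at promoters, supplied 3 of them, and without it 4 genes remained (9.3%), beside 11.6%. The share of germline genes with a peak at a start thus did not exceed that of protein-coding genes in the length range. Each of the 7 starts was bound by a single KRAB-ZFP.

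The Gm13152 peak at Ddx4, the germline RNA helicase also named Vasa, was centred 109 bp upstream of the gene with 67 tags and a fold of 20.9. Its peaks at Smc1b, a cohesin subunit of meiotic chromosomes, and Tdrd6, a Tudor domain protein of spermatids, lay inside the genes. They were centred 220 bp and 215 bp from a start, with folds of 29.99 and 21.81. All 3 were below the middle of the Gm13152 peaks by fold, at ranks 4799, 2918 and 4569 of 5189. At Dazl, an RNA-binding protein needed for germ cell development, Zfp661 had a peak centred 199 bp from a start with a fold of 40.11. At Figla, a transcription factor of oocytes, Gm14412 had a peak 442 bp into the gene with a fold of 47.93, the highest of the 7. Prdm9, which is itself a zinc finger protein and marks the sites of meiotic recombination, had a Gm14419 peak 38 bp from a start, in the untranslated region, with a fold of 27.57. At Stag3, another meiotic cohesin subunit, the Gm13225 peak lay in the gene, 413 bp from a start, with a fold of 11.01, the lowest of the 7.

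The windows of the Ddx4, Dazl and Figla peaks are shown because they hold the start-proximal peaks of 3 KRAB-ZFPs outside exons and differ in CpG content. They are 200 bp of mm9, with every CpG in capitals.
Ddx4 (Gm13152, chr13:113442528-113442727, plus strand): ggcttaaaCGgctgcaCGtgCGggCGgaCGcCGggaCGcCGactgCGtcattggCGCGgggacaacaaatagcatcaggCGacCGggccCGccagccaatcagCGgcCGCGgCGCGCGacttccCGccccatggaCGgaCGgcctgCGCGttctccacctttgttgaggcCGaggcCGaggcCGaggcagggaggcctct
Dazl (Zfp661, chr17:50431919-50432118, plus strand): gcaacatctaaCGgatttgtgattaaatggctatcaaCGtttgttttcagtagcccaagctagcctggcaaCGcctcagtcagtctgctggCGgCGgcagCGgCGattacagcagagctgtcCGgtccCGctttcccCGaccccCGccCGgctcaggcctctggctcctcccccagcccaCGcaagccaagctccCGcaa
Figla (Gm14412, chr6:85967528-85967727, plus strand): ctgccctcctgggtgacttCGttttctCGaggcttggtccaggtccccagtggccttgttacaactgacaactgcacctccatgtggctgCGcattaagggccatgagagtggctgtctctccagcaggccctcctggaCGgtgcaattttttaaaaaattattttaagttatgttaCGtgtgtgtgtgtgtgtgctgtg
The Ddx4 window held 28 CpGs with 71% GC, the Dazl window 14 with 61% GC and the Figla window 5 with 51% GC. Over all 53011 peaks the median was 2 CpGs, and over the 4770 peaks within 1 kb of a coding start it was 17. The windows at the other starts held 20 CpGs at Tdrd6, 17 at Smc1b, 14 at Prdm9 and 11 at Stag3. A high CpG number was thus common to peaks at gene starts and was not particular to the germline genes.

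Of the 14 genes of the piRNA pathway, 12 had a peak, with 59 peaks in all and a median of 4.5. Mael (chr1:168131516-168168875, minus strand), a protein of the germ granule needed for silencing of transposons, had 9 peaks of 8 KRAB-ZFPs, 5 of them in introns. The peak with the highest fold near any of the 43 genes was that of Gm13152 at Mael, with 497 tags and a fold of 173.6, rank 5 of the 5189 Gm13152 peaks. It was centred 15.3 kb upstream of Mael and 137 bp from a start of Ildr2, so it lay at the promoter of a neighbour. In Mael introns, Gm14406 had peaks with folds of 26.25 and 25.27, Zkscan17 had one with a fold of 15.97, and Gm14326 and Gm14418 shared a locus. The deposited false discovery rate was 98.96% for that Gm14326 peak and 100% for that of Gm14418, with 17 and 11 tags.

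Tdrd1, a Tudor domain protein that binds Piwi proteins, had 7 peaks. Gm13152 had a peak with a fold of 116.83 at 47.3 kb upstream and a second with a fold of 36.36 at 17.2 kb upstream. Zfp617 had the gene body peak, in an intron 16.1 kb from a start, with a fold of 27.34. Tdrkh, which is anchored to mitochondria and acts in piRNA trimming, had 7 peaks and none in the gene body. Its highest folds were 65.91 for Gm14412 and 53.63 for Gm13152, both at one locus 49.2 kb upstream, where the nearest coding start was that of C2cd4d. Mov10l1, a helicase needed to make piRNAs, had 8 peaks of 6 KRAB-ZFPs. Of these, 3 were within 1 kb of a start of a downstream neighbour: Gm13152 and Gm14412 at Panx2, and Gm14412 at Trabd with a fold of 45.67. In Mov10l1 introns there were ES cell peaks of Gm14419 with a fold of 28.71 and Gm14401 with a fold of 11.25, both in multi-copy sequence.

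The 3 Piwi genes differed in the position of their peaks. Piwil2 had 5 peaks, and in its intron the summits of Gm13225 and Gm13251 were at 34.2 and 33.9 kb from the gene start with folds of 11.76 and 34.15. Piwil4 had 4 peaks, all downstream, of Zfp599, Zfp709 and Zfp872, with folds from 10.85 to 22.02. Piwil1 had 2, a Gm14295 peak in ES cells, upstream, with a fold of 11.54 and a Zfp46 peak 35.5 kb downstream with a fold of 25.51. Tdrd9, a helicase with a Tudor domain, held 3 intronic peaks, those of Zfp429 with folds of 42.9 and 22.75 and that of Zfp58 with 22.29. Stk31, which joins a Tudor domain to a kinase domain, had 5 peaks, all downstream of its end and all with Stk31 as the nearest coding gene. Among them Zfp961 stood highest with a fold of 86.5 at 15.6 kb beyond the gene. Tdrd5, typed as a noncoding gene in this annotation, had an intronic Gm13152 peak with a fold of 37.95. Tdrd6 had 2 further peaks upstream, with folds of 33.63 for Gm13152 and 10.52 for Zfp709, and Ddx4 had a Gm21082 peak downstream with a fold of 26.02.

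The 6 genes of RNA-binding proteins and germ cell maintenance all had peaks, 31 in total. Tex14 (chr11:87218567-87369325, plus strand), needed for the bridges that join dividing germ cells, had 11 peaks, each of a different KRAB-ZFP, and 8 lay in introns of this gene of 150.8 kb. The highest was that of Gm13051 with 163 tags and a fold of 97.24, rank 64 of 550, in a window with a median of 28 copies of its 24-mers in the genome. The other folds at Tex14 ranged from 7.95 for Gm14401 to 24.08 for Gm13145 in introns, and a Zfp661 peak with a fold of 23.83 lay 22.5 kb beyond its end and 87 bp from a start of Sept4.

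Nanos2, a translational regulator of male germ cells and the shortest of the genes at 1439 bp, had 7 peaks of 5 KRAB-ZFPs and none in its body. No Nanos2 peak had it as the nearest coding gene, and the highest, that of Gm13152 with a fold of 63.62, was 25 bp from a start of Irf2bp1. Tex19.1, a germline protein that limits retrotransposons, had 5 peaks, of which 3 stood at the same place. Dazl had, beside the peak at its start, a Gm14326 peak 5.5 kb upstream with a fold of 16.41 and a deposited false discovery rate of 100%, and a Gm13251 peak 31.8 kb downstream with a fold of 25.46. Dnd1, an RNA-binding protein of primordial germ cells, had 3 peaks, with a fold of 53.6 for Zfp617 as the highest, and Nanos3 had 2, with folds of 34.01 for Gm13152 and 8.0 for Gm14295.

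The 10 genes of the chromosome axis and synapsis had 23 peaks in all with a median of 2, and each had at least 1. Syce2, a protein of the central element of the synaptonemal complex, had 5, all outside the gene, with a Zfp661 fold of 43.44 as the highest. Smc1b had, beside the peak at its start, a Gm14406 peak in an intron with a fold of 21.96, where the median copy number of the window was 8285, and a further Gm13152 peak 19.6 kb upstream with a fold of 29.99. Sycp1, which forms the transverse filaments, had an intronic Gm14412 peak with a fold of 35.09 in a window with a median of 589 copies, and peaks of Zkscan17 and Gm14406 42.5 and 49.5 kb upstream with folds of 20.04 and 25.1. Rec8, the meiotic cohesin kleisin, had a Zfp759 peak in an intron with a fold of 20.66, a Zfp457 peak 6.47 kb upstream with a fold of 11.57 and a Gm13152 peak with a fold of 59.08, which was 239 bp from a start of Irf9. Hormad2 had a Gm14412 peak 43.2 kb downstream with a fold of 66.89 and a Gm14419 peak nearer to its start, upstream, with a fold of 14.57. Sycp2 had 2 peaks upstream, of which the Gm13152 peak with a fold of 40.9 was 308 bp from a start of Ppp1r3d.

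Syce1, Sycp3, Hormad1 and Stag3 had 1 peak each. In Syce1, another central element protein, Gm13154 had an intronic peak with a fold of 52.27, rank 279 of 1561. Sycp3, a lateral element protein, had a Zfp961 peak 38.8 kb downstream with a fold of 60.89. The only peak of Hormad1 was that of Gm14326, 4.54 kb upstream, with 14 tags, a fold of 10.68 and a deposited false discovery rate of 100%, so the count for Hormad1 rests on that call alone.

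Of the 5 genes of recombination, all had peaks, with 26 in total and a median of 5. Dmc1 (chr15:79391930-79435529, minus strand), the recombinase that carries out strand exchange in meiosis, had 10 peaks of 8 KRAB-ZFPs. Zfp961 supplied 3 of them, with folds of 112.89 and 21.87 at 38.2 and 38.9 kb downstream, nearest to a start of Kdelr3, and of 21.24 in a Dmc1 intron 1.07 kb from a start. Upstream of Dmc1, up to 20.2 kb, lay peaks of Zfp617, Zfp46, Zfp933 and Gm13152 with folds of 25.95, 26.49, 12.82 and 57.26. The start of Dmc1 was the nearest coding start for all 4 of these. All 4 nevertheless lay within annotated genes other than Dmc1, that of Zfp933 in a coding exon and the others in introns.

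Tex15, which acts in meiotic repair and in silencing of transposons, had 6 peaks of 6 KRAB-ZFPs, all outside the gene. The highest was that of Zfp599 with 170 tags and a fold of 81.02, rank 29 of 697, at 38.9 kb downstream, and a Gm13154 peak with a fold of 46.87 lay at 39.6 kb. At Prdm9 all 5 peaks came from ES cell samples, 3 from Gm14419 and 1 each from Zfp931 and Gm8898, with folds from 10.87 to 27.57. The KRAB-ZFPs expressed in ES and in F9 cells were different proteins, so cell line and protein cannot be told apart at Prdm9. Mei1, needed for the formation of meiotic breaks, had 3 peaks with folds of 20.58, 20.17 and 11.24, the last in an intron. Spo11, the enzyme that makes these breaks, had 2 upstream peaks, and that of Gm13152, with a fold of 34.54, was 15 bp from a start of Bmp7.

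The 4 regulators of meiotic entry and gamete transcription had 6 peaks. Sohlh1, a transcription factor of early germ cells, had 3, while Figla, Sohlh2 and Stra8 had 1 each. In Stra8, which responds to retinoic acid at the entry into meiosis, Zfp273 had an intronic peak 6.36 kb from a start with a fold of 24.64 and a deposited false discovery rate of 9.86%. The peak of Sohlh2 was that of Zfp457, 20.7 kb downstream, with a fold of 11.26.

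Of the 4 genes for gamete products, Zp3, the zona pellucida protein to which sperm bind, had 9 peaks of 7 KRAB-ZFPs. The Gm14401 peak in ES cells 22.3 kb upstream of Zp3 had 95 tags and a fold of 82.29, the first of 1541 Gm14401 peaks by fold, although its deposited false discovery rate was 66.67%. Within the gene, Gm14412 had an intronic peak with a fold of 42.86, and Zfp661 had a peak in a coding exon with a fold of 20.89. Zfp661 had a further peak 15.2 kb downstream with a fold of 42.61. Gdf9, a growth factor secreted by oocytes, had 7 peaks and was the nearest coding gene for none of them. The closest was that of Zfp759, 1.74 kb upstream, with a fold of 21.09. Tex101, a sperm surface protein, had peaks of Gm13152 and Zfp46 with folds of 35.45 and 44.73 between 38.2 and 44.9 kb downstream. Slc25a31, the ADP/ATP carrier of sperm, had peaks of Gm14412 and Zfp599 with folds of 32.87 and 22.02, and the former was 13 bp from a start of Hspa4l.

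Among the KRAB-ZFPs, 39 of 67 had a peak near a germline gene and 28 had none. Those with none had at most 544 peaks in all, and this split was not set beside that for other genes. Gm13152 had the most, with 23 of its 5189 peaks at 20 genes (0.443%, 95% Wilson interval 0.296% to 0.664%), beside 0.297% of the peaks of all other KRAB-ZFPs. Gm13225 followed with 17 of 3570 at 14 genes (0.476%, 0.298% to 0.761%), Gm14412 with 11 of 2787 at 10 genes and Zfp961 with 9 of 1457 at 6 genes. These intervals cover counting error only. Among KRAB-ZFPs with 5 or more such peaks, the highest shares were those of Gm13145 with 5 of 444 at 5 genes (1.13%, 0.482% to 2.61%), Gm14326 with 5 of 519 at 5 genes (0.963%, 0.412% to 2.24%) and Zfp661 with 8 of 1065 at 7 genes (0.751%, 0.381% to 1.48%). The windows covered 0.223% of the chromosomes, so length alone would give 11.6 of the Gm13152 peaks, 2.38 of the Zfp661 peaks and 0.992 of the Gm13145 peaks. This is the length of whole chromosomes, and the windows of protein-coding genes in general also held more peaks than their length gives, 55.1% of peaks in 41.8% of the length, so a number above it is not particular to the germline genes. The KRAB-ZFPs were ranked here after their values were seen, and these shares are descriptions.

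In the other direction stood Gm14406, which had the most peaks of all KRAB-ZFPs, 5685, but only 5 of them near the germline genes (0.088%, 0.0376% to 0.206%), where length would give 12.7. Of the Gm14406 peaks, 91.6% lay in multi-copy sequence, here taken as windows whose 24-mers had a median of 10 or more copies. Gm21082 likewise had 2 of 2211 peaks near them (0.0905%), where length would give 4.94. This is again the length of whole chromosomes, and the shares of these KRAB-ZFPs near genes in general were not computed. A number below it is therefore not shown to be particular to the germline genes. Of the KRAB-ZFPs with none, Zfp808 had 0 of 544 peaks and Gm13157 0 of 443. Taking 3 peaks of the total as the limit that a count of 0 allows, the shares could be up to 0.551% and 0.677%, and the upper ends of the 95% Wilson intervals were 0.701% and 0.86%. A lack of binding near the germline genes is therefore not shown for them at this number of peaks.

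**Figure D4:**
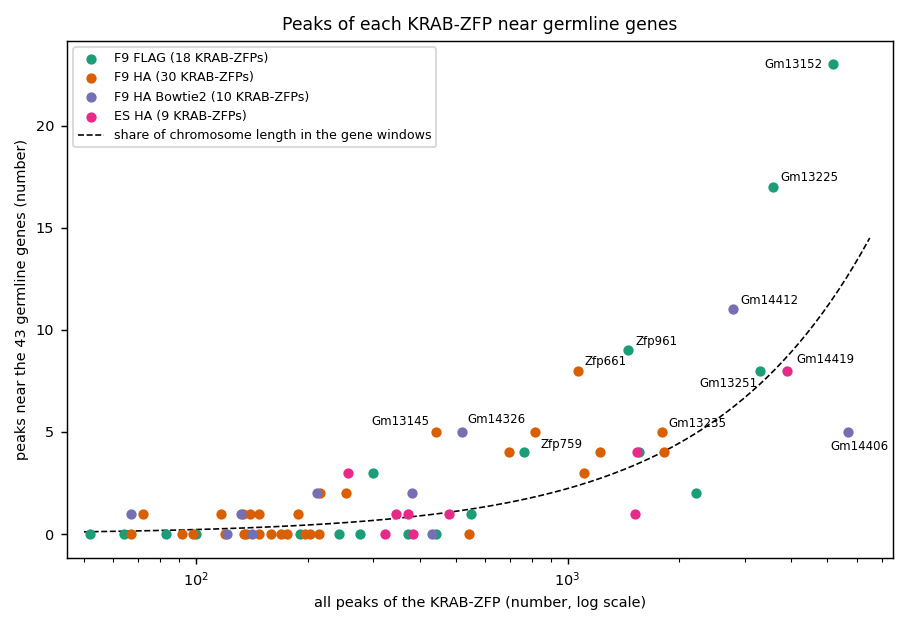
Number of peaks near the 43 germline genes (vertical axis) against all peaks of each of the 67 KRAB-ZFPs (horizontal axis, log scale), coloured by the combination of cell line, tag and alignment. The dashed line is the number given by the 0.223% of chromosome length in the gene windows, which windows of genes in general also exceed. Gm13152 with 23 and Gm13225 with 17 lie above the line, and Gm14406 with 5 lies below it.

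Several further KRAB-ZFPs had peaks at 3 or more of the genes. Gm13251 had peaks at 8 genes, Gm14326 and Gm13235 at 5 each and Gm14419 at 5, of which 3 peaks were at Prdm9. Zfp759, Gm14406, Zfp457, Gm13154, Zfp617, Gm14401 and Zfp599 each had peaks at 4 genes, and Zfp709, Zfp46, Gm14295 and Zkscan17 at 3. The 5 peaks of Gm14326 all had a deposited false discovery rate over 50%. Of the 165 peaks, 8 were over that rate (4.85%), beside 2.61% of all peaks, and besides those of Gm14326 they were 1 each of Gm14391, Gm14401 and Gm14418. At a limit of 5%, 30 of the 165 peaks were over it (18.2%), beside 13.8% of all peaks. Not all of these are given here with their rate.

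By combination of cell line, tag and alignment, the share of peaks near the germline genes was 0.378% (48 of 12683) for F9 samples with HA aligned with Bowtie, 0.343% (71 of 20728) for F9 with FLAG, 0.258% (27 of 10478) for F9 with HA aligned with Bowtie2 and 0.208% (19 of 9122) for ES cells. The 95% Wilson intervals were 0.286% to 0.501%, 0.272% to 0.432%, 0.177% to 0.375% and 0.133% to 0.325%, so neighbours in this order overlapped. They cover counting error over pooled peaks and not the spread between proteins. The median share per KRAB-ZFP stood in another order. It was 0.459% for F9 with HA aligned with Bowtie2 and 0.246% for F9 with HA aligned with Bowtie. For ES cells it was 0.208% and for F9 with FLAG 0.0452%. Different proteins were expressed in each, and proteins and setups cannot be told apart.

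Windows of different KRAB-ZFPs that overlapped by at least 25% were joined into loci. Of 155 loci near the germline genes, 9 were called in more than 1 KRAB-ZFP (5.81%), beside 6.31% of all 48767 loci. In 8 of the 9 the KRAB-ZFPs came from the same combination of cell line, tag and alignment. The exception was the locus upstream of Tdrkh bound by Gm14412 and Gm13152. The same count was not made over all shared loci, so it does not set the germline genes apart. Shared loci lay at Dmc1 (Zfp456 and Zfp493, folds of 10.33 and 16.16), Gdf9 (Zfp759 and Gm13145, 20.57 and 25.6), Sohlh1 (Gm13251 and Gm13225, 31.31 and 14.95), Tdrd1 (Gm13145 and Zfp938, 21.43 and 21.04), Tdrkh (Gm13225 and Gm13251, 10.04 and 32.73), Mael (Gm14326 and Gm14418, 13.17 and 11.05) and Tex14 (Gm14326 and Gm14436, 10.35 and 12.42). Gm13225 and Gm13251, both with a FLAG tag, thus met at Sohlh1 and Tdrkh, and their summits in the Piwil2 intron were near one another without a shared window.

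The locus downstream of Tex19.1 was the only one of 3 KRAB-ZFPs. Zfp759, Gm13235 and Gm13145, all with an HA tag in F9 cells, had summits within 3 bp of one another, 14.7 kb beyond the end of the gene, with folds of 22.66, 12.06 and 23.63. The nearest coding start, that of Uts2r, was 2.76 kb away. The window of Zfp759 is shown, with the 3 summits and 10 bases to either side in capitals.
Tex19.1 (Zfp759, chr11:121024249-121024448, plus strand): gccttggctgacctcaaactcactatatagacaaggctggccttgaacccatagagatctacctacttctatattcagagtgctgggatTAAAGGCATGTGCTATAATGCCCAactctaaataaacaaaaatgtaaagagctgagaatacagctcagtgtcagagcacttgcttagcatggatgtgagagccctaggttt
The median copy number of its 24-mers was 1, so reads could be placed there uniquely.

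To see what the peaks near the germline genes shared in sequence, the 8-mer that set each KRAB-ZFP apart most was taken from its windows with fewer than 10 copies outside the germline genes, as the 8-mer with the largest difference between the share of its own windows that held it and that of the windows of all other KRAB-ZFPs, on either strand. Among 39 KRAB-ZFPs, 10 had an 8-mer in at least 40% of their own windows, a limit set after the values were seen. Of their 46 peaks near germline genes 28 held it, beside 40.2% to 84% of their own windows elsewhere. For the other 29, it was 16 of 119, beside 5.71% to 39%. Both counts lay within these ranges, so they do not set the germline genes apart. The peaks near germline genes were not limited to fewer than 10 copies. A match is a description of the window and not a site.

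For Zfp599 the 8-mer was AACATGGC, found in 40.2% of its own 664 windows and in 0.832% of 33899 windows of the others, and all 4 of its peaks near germline genes held it. The windows at Slc25a31, Tex15, Piwil4 and Mov10l1 are shown, the 8-mer in capitals, to compare what surrounds it.
Slc25a31 (Zfp599, chr3:40570528-40570727, minus strand): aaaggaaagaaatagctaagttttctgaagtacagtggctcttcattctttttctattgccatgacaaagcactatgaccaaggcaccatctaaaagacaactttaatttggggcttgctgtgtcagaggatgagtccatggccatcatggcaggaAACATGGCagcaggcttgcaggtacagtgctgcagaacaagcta
Tex15 (Zfp599, chr8:34734842-34735041, minus strand): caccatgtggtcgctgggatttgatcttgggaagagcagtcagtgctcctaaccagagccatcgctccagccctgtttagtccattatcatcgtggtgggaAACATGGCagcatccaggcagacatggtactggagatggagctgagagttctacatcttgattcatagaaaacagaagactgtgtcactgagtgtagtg
Piwil4 (Zfp599, chr9:14451014-14451213, minus strand): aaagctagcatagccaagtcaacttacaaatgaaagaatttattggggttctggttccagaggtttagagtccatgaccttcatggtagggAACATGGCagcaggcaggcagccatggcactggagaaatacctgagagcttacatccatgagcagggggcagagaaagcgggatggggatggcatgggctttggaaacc
Mov10l1 (Zfp599, chr15:88795319-88795518, minus strand): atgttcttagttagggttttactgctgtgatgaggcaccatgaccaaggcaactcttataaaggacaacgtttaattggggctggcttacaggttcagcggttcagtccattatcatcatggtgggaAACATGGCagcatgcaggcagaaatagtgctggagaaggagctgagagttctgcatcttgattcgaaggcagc
In the 20 bases to either side, 23 of 40 positions were the same in all 4 windows, which lie on 4 chromosomes. The median copy number was 24 at Mov10l1 and 1 at the others. It counts exact 24-mers only, so diverged copies of a repeat can also have a median of 1. The study reported binding of ZFP599 and ZFP617 to ORR1-type long terminal repeats. Whether these windows lie in such repeats was not tested.

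For Zfp617 the 8-mer was ACCATGAC, in 78.4% of its own 621 windows and 0.981% of those of the others, and 3 of its 4 peaks held it. Its windows at Dmc1 and Tdrd1 are shown for the same reason.
Dmc1 (Zfp617, chr15:79444635-79444834, minus strand): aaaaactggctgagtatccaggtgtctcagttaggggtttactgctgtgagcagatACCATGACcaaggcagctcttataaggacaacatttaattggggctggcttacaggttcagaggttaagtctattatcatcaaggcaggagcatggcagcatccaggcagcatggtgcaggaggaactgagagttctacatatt
Tdrd1 (Zfp617, chr19:56921198-56921397, minus strand): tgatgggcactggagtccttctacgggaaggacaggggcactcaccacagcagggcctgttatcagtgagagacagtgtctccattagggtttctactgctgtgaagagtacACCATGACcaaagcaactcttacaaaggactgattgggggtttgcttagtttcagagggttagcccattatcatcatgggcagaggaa
In the 20 bases to either side, 19 of 40 positions were the same in both. The Zfp599 window at Mov10l1 also held the 8-mer of Zfp617, with 91 bases between the starts of the 8-mers of both proteins. Of all Zfp599 windows compared, 14.3% held the 8-mer of Zfp617, and 3.86% of the Zfp617 windows held that of Zfp599. These shares were above those in the windows of other KRAB-ZFPs, and they were looked at after the sequences were seen.

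For Gm13051 the 8-mer was GATACCAA, in 84% of its own 257 windows and 0.356% of those of the others, and its peak in the Tex14 intron held it. For Zfp961 it was GGGCGCCA, in 47% of its own 1169 windows and 0.467% of the others, and 3 of its 9 peaks held it, among them those with the highest folds at Dmc1 and Stk31. These windows show the 8-mer in sequence with a median copy number of 1 (Dmc1 and Stk31) and of 28 (Tex14).
Tex14 (Gm13051, chr11:87292256-87292455, plus strand): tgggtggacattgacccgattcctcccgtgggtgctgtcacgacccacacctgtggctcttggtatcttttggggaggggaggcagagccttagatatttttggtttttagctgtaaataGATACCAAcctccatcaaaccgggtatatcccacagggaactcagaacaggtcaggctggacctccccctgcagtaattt
Dmc1 (Zfp961, chr15:79353609-79353808, minus strand): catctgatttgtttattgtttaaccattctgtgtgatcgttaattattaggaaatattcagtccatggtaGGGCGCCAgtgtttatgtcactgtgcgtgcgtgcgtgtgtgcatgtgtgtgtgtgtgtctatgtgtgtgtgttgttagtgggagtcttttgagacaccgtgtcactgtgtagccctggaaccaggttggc
Stk31 (Zfp961, chr6:49434966-49435165, minus strand): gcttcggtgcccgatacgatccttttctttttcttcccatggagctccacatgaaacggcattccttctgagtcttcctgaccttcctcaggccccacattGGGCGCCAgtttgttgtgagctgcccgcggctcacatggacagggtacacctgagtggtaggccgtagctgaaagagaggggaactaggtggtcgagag
The Zfp961 windows agreed at 14 of 40 positions beside the 8-mer.

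For Gm13225 the 8-mer was a run of A (AAAAAAAA, or T on the other strand), in 76.2% of its own 2909 windows and in 9.74% of the others. Near the germline genes 12 of its 17 peaks held it, at Dnd1, Gdf9, Nanos2, Smc1b, Sohlh1, Stk31, Tdrd1, Tdrd9, Tdrkh, Tex14, Tex15 and Zp3, and the longest run in a window reached 29 bases at Dnd1 and 25 at Zp3. The other 5 were at Piwil2, Stag3, Nanos2, Tdrkh and Zp3, with longest runs of 3 to 5 bases, so Nanos2, Tdrkh and Zp3 had a window of either kind. The Zp3 window is shown as an example, with the run in capitals.
Zp3 (Gm13225, chr5:136411566-136411765, plus strand): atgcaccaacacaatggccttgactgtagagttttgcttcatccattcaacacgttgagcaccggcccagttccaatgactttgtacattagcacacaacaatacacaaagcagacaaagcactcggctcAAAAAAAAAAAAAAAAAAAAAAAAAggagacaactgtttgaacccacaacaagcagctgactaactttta
For Gm14406 it was CAAGAAAC, in 53.1% of its own 475 windows and 0.745% of the others. Of its 5 peaks near germline genes 2 held it, both in Mael introns, while those at Smc1b, Sycp1 and Sycp2 did not. The windows of the Mael peaks lie 7091 bp apart, and over their 200 bases they were identical. One of them is shown because a read from either copy could be placed at either.
Mael (Gm14406, chr1:168142451-168142650, plus strand): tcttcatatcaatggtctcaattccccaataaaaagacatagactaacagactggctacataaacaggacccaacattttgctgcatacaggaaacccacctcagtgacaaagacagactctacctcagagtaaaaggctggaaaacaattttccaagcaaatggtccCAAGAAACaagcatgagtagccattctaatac
The median copy number of these windows was 478, so reads from one cannot be told from reads of the other by sequence.

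The share of peaks near the germline genes that lay in multi-copy sequence was 16.4% (27 of 165, 95% Wilson interval 11.5% to 22.8%), beside 34.5% of all peaks and 23.5% of the 29190 peaks within 50 kb of protein-coding genes in the length range. Peaks near genes in general thus had a lower share than all peaks, and the interval for the germline genes lay below both. That interval treats peaks as independent, although they fell at 41 genes and came from 39 KRAB-ZFPs. The share differed widely between KRAB-ZFPs, with 91.6% over all Gm14406 peaks. The part of the mix of proteins in the difference was not tested. Without Gm13152, whose peaks were at 3.62% rarely in multi-copy sequence, the share at the germline genes was 19% with an interval of 13.4% to 26.3%, beside 37.9% of all peaks and 26.9% of those near genes in the range, close to the upper end of the interval. This setting was chosen after seeing the data. Counted over introns of any annotated gene and not only the germline genes, introns held 52.1% of the peaks near germline genes. For peaks near genes in the range this was 40.8%. Intergenic sequence, outside any annotated gene, held 32.7% and 47.9%. The median fold was 22.29 beside 23.01. Each peak was also placed by fold among all peaks of its own KRAB-ZFP. The median of these percentiles, pooled over the 165 peaks, was 49.7 beside 50.2. Single peaks ranged from 0.4 for Gm13154 at Mei1 to 100 for Gm14401 at Zp3, so this median does not describe each protein. The tags per peak ranged from 9 to 497 with a median of 52.

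A list of 41 other genes of the same processes, of which 39 were annotated, was set beside the 43. A peak was found for 33 of the 39 (84.6%), with a median of 3 peaks, beside the 91.8% of protein-coding genes in the length range. Of the 39, 7 had a peak within 1 kb of a start, beside 21.7% of those genes. The 39 were not limited to that length range, so both comparisons are between genes that may differ in length. The highest number was 10 peaks at Zbtb16, a transcription factor of spermatogonial stem cells, followed by 9 each at Mnd1, Msh5 and Tex19.2. Tex19.2, the paralog of Tex19.1, lies close to it on chromosome 11, so peaks of both windows are counted for both. None was found for Nobox, Rnf17, Tex12, Tex13, Trip13 and Usp26.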

How the data were processed

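ChIP-seq peaks of 68 tagged KRAB-ZFPs, 1 sample each, were taken from a table deposited by the authors, with 6 further samples as inputs or control ChIPs. Per the submitters' processing notes, reads were aligned to mm9 with Bowtie or Bowtie2 and peaks were called with MACS 1.4.2. The authors set each peak to 200 bp around its summit, kept peaks at a p of 1e-10 or 1e-05 and, in F9 cells, an enrichment of 20 or 10, and loosened the thresholds where few peaks remained. Reads that map to many places were put at one of them, so peaks in repeats are less certain in position. The deposited columns hold the tag count of each peak, a score from the peak caller (−10 log10 of the p-value), a fold enrichment that is a ratio to background, and a false discovery rate in percent. Of the names in the table, 67 matched a sample label. Zfp92 in the table and Zfp94 in the labels matched nothing and were not used in any count.

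Peaks were assigned to gencode vM1 genes on mm9 by their centre, with windows of 50 kb and 1 kb. Multi-copy windows had a median of 10 or more copies of their 24-mers in the genome. Only exact matches were counted, so diverged repeats can fall below this limit. Loci joined windows that overlapped by at least 25%. Wilson intervals at 95% cover counting error only. The assignment was tested on simulated peaks. Genes described peak by peak were those with a peak within 1 kb of a start, in an exon or at a shared locus, then those with the most KRAB-ZFPs, and the others were given more briefly. The genes and lists were chosen with earlier results of these data known, and no test was run over them. Scripts used Python 3.11.15, numpy 2.4.6, pandas 2.3.3, scipy 1.17.1, numba 0.67.0 and matplotlib 3.10.9.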

Additional observations from a re-analysis of the deposited data

How the results depend on the processing

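With the gene body alone, 20 germline genes had a peak, with 37 peaks. A window of 10 kb gave 58 peaks at 30 genes (69.8%, beside 63.1% of protein-coding genes in the length range), and one of 100 kb gave 306 peaks at 43 genes (100%, beside 98.1%). Peaks with p under 1e-10 and enrichment over 20 numbered 105 at 38 genes (88.4%, beside 84.9%), and with enrichment over 10 they numbered 133 at 39 genes (90.7%, beside 88.9%). Without Gm13152, 4 genes had a peak within 1 kb of a start. At a limit of 100 copies, the multi-copy share was 10.3%, beside 27.9% of all peaks and 17.6% of those near protein-coding genes in the length range. At an overlap of 50% there were 7 shared loci. Taking the summit in place of the window centre changes nothing, since the windows are centred on it. No paired analysis was possible because each KRAB-ZFP has 1 sample and no groups share replicate numbers. The number of peaks of each KRAB-ZFP depends on an unknown depth and on thresholds that differ between samples, so counts are not comparable as binding strength.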

Other observations

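The name Zfp92 in the peak table matched no sample label and was left out of all counts. It had 244 peaks, 3 of them near germline genes, at Stk31 and Gdf9.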
